A study of Mus musculus with 24 samples.

Results

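The nuclear factor I genes Nfia, Nfib, Nfic and Nfix were examined in the chromatin of mouse fibroblasts with and without the paired-type homeobox factor Prrx1. All 4 family members were taken by name from the mm9 gene annotation, out of 22372 protein-coding genes, and each gene body was read together with 10 kb on each side. The series holds 24 ChIP-seq samples, of which 17 have a peak list used here: 7 for histone H3 acetylated at lysine 27 (H3K27ac), 7 for histone H3 trimethylated at lysine 4 (H3K4me3) and 3 for Prrx1. The other 7 are inputs.

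Nuclear factor I proteins are a family of transcription factors that share an amino-terminal DNA-binding and dimerisation domain and bind, as dimers, the palindrome made of TTGGC and GCCAA. Nfia is best known for glial fate, Nfib for lung and brain development and hair follicle stem cells, Nfic for tooth root formation, and Nfix for brain development and the switch between muscle programmes. All 4 are expressed in many mesenchymal cells. H3K4me3 marks the start sites of genes that are open for transcription, and H3K27ac marks active promoters and enhancers, so that both marks give a view of a gene's state without measuring its RNA.

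The cultures were of 3 kinds, all made immortal with E6 and E7 of a papillomavirus, which act on p53 and the retinoblastoma protein. Mouse embryonic fibroblasts (MEF), labelled C57BL/6, came from embryos of day 10 to 13 as wild type (WT), as the Prrx1 mutant labelled KI (read here as the 129S-Prrx1tm1Jfm line that the growth protocol names, described by the study as a lacZ insertion backcrossed to C57BL/6) and as SG, in which a guide RNA with Cas9 had deleted Prrx1. Mammary tumours of MMTV-PyMT mice gave the cancer-associated fibroblasts (MMTV-CAF, FVB/NJ). In these mice the viral promoter drives the oncogene in mammary epithelium, not in the fibroblasts. The tumour fibroblasts and the fibroblasts grown from dorsal wounds at day 10 (wound-healing, C57BL/6) were each profiled as WT, carrying a control guide, and as SG. Prrx1 was profiled in WT cells. Whether a culture was 1 clone or a pool of cells is not given in the sources used here. Each group had 1 library per antibody, so differences within a type compare single lists and carry no test. The difference between SG and WT was repeated in 3 types, and a difference shared by them was tested across types. MEF KI and MEF SG were both set against the same MEF WT library. Below, values run in the order WT, KI, SG for MEF and WT, SG for the other types, called pairs.

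The lists differed as wholes. H3K27ac lists held 29325 (MEF KI) to 61603 (MMTV-CAF SG) summits, with a median −log10 p of 11.9 in MEF KI and of 15.2 to 21.2 in the other 6, and H3K4me3 lists held 13125 (MEF KI) to 29166 (MMTV-CAF SG) regions. Values of the 4 genes are therefore given beside those of all genes in the same list. Of 9 fibroblast marker genes, 6 to 9 carried an H3K4me3 region at a start site in each list. Of 12 markers of epithelial, immune and endothelial cells, between 1 and 3 did so, and these were Cdh1, Cd14 and Kdr only, while Epcam, Ptprc and Pecam1 had none in any list. Prrx1 itself kept an H3K4me3 region at its upstream start in all deleted libraries, so these peak lists do not check the deletion. In MEF KI that region was narrower by 1.89-fold (8628 bp in WT and 4558 bp in KI), and 23.5% of all genes were narrower by 1.5-fold or more. The downstream Prrx1 start was marked in the MMTV-CAF lists only.

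Nfia lies on the plus strand of chromosome 4 from 97439425 to 97868605 and spans 429 kb. Nfib lies on the minus strand of the same chromosome from 81936077 to 82351654 (416 kb). Nfic, the shortest at 34.8 kb, sits on chromosome 10 (minus strand), from base 80858931 to 80893750, and Nfix covers 100 kb of the minus strand of chromosome 8 from 87223775 to 87324243. Start sites of protein-coding transcripts within 500 bp of each other were joined, which gave 3 start-site clusters for Nfia, Nfic and Nfix and 2 for Nfib. Some peaks in these windows may belong to other genes: E130114P18Rik starts beside Nfia on the opposite strand, the Nfic window holds 2210404O07Rik and most of Dohh, and the Nfix window holds Lyl1, G430095P16Rik and most of Trmt1 without its start.

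The start sites differed in base composition, and the bases just before 4 of them are shown because the starts of Nfia and Nfib without H3K4me3 were CpG-poor. The sequences are the 120 bases (mm9) before each start-site cluster on the strand of the gene, with every CG in capitals.
Nfia main cluster, chr4:97444179-97444298, plus strand: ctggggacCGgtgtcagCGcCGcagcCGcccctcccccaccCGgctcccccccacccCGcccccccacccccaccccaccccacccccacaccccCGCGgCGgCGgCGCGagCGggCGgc
Nfia internal cluster, chr4:97546690-97546809, plus strand: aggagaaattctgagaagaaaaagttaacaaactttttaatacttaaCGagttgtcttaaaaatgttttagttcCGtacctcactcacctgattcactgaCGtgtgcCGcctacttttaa
Nfib upstream cluster, chr4:82351655-82351774, minus strand: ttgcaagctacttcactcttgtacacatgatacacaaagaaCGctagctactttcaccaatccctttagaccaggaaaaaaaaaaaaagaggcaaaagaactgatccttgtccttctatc
Nfix distal cluster, chr8:87324244-87324363, minus strand: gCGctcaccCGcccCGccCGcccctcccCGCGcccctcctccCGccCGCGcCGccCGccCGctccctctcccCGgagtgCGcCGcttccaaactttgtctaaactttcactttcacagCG
The main Nfia stretch held 14 CG pairs and the distal Nfix stretch 16, against 4 for the internal Nfia start and 1 for the upstream Nfib start. Starts not shown did not all follow this. The stretch before Nfia-005 held 0 and those before the internal Nfix starts 2 each, although these starts carried H3K4me3 in most or all lists. Over 500 bp on each side, the ratio of observed to expected CG was 0.935 at the main Nfia cluster, 0.841 at the main Nfib cluster and 1.08 at the distal Nfix cluster. It was 0.299 at the internal Nfia start and 0.236 at the upstream Nfib start. Across all protein-coding start-site clusters the median was 0.716 for those with an H3K4me3 region in any of the 7 lists and 0.221 for those with none.

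H3K4me3 was present at a start site of each of the 4 genes in all 7 lists. At Nfia, the widest region over a start site measured 5569 bp in MEF WT, 5381 bp in MEF KI and 4989 bp in MEF SG, 6610 and 10207 bp for the MMTV-CAF pair, and 4842 and 6669 bp for the wound-healing pair. In these bulk cultures, fewer marked cells and less of the mark per cell cannot be told apart. Nfia stood at or above the 93.7th percentile of width among genes with a region in every list. The fold over input of that region was 6.07, 4.25 and 6.32 in the MEF lists, 9.15 and 10.7 for the MMTV-CAF pair and 8.06 and 8.92 for the wound-healing pair, which placed it between the 38.4th and 66.9th percentile. Nfia thus had a wide start-site region of ordinary height. The start 4.87 kb upstream, that of Nfia-005, had a region of its own of 1698 to 2603 bp in 6 lists, and in MMTV-CAF SG a single region of 10207 bp covered both clusters. The internal start of Nfia-007, 103 kb downstream, had none in any list, the nearest region lying 10.3 to 40.2 kb away.

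Nfib had 1 marked start-site cluster. Its region measured 7065, 5296 and 6646 bp in MEF WT, KI and SG, 7436 and 7494 bp for the MMTV-CAF pair, and 4307 and 7651 bp for the wound-healing pair. Nfib was therefore narrowest in the wound-healing WT library and nearly equal in width in the 2 MMTV-CAF libraries. Fold over input ranged from 3.88 (MEF KI) to 11.4 (MMTV-CAF SG). The start of Nfib-010, 200 kb upstream of the main cluster, was unmarked in all 7 lists, with the nearest region 149 to 153 kb away.

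Nfic was the least wide of the family, at the 24.2nd to 88.1st percentile in 6 of 7 lists. Its widest region over a start site measured 3542, 1302 and 3345 bp in MEF WT, KI and SG, 12052 and 4210 bp for the MMTV-CAF pair, and 3688 and 4061 bp for the wound-healing pair. The 12052 bp region of MMTV-CAF WT was not the main promoter. It lay over the start of Nfic-009, 19.5 kb inside the gene, and had a fold of 3.39, whereas the main cluster in the same list had a region of 5183 bp with a fold of 10.6. At that internal start, MMTV-CAF SG had 1162 bp, with a region of 6980 bp over no start site nearer the main cluster, wound-healing SG 867 bp and the other 4 lists had none. At the main cluster itself MMTV-CAF SG kept 4210 bp with a fold of 14.7. In MEF KI the main cluster counted as unmarked because the region beside it, of 1977 bp, ended 17 bp short of the nearest start.

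Nfix showed the largest spread of width. Its widest region over a start site measured 6494, 1393 and 5205 bp in MEF WT, KI and SG, 20121 and 17987 bp for the MMTV-CAF pair, and 9015 and 6113 bp for the wound-healing pair. Both MMTV-CAF libraries stood far above the rest, and MEF KI far below. In all 7 lists this region lay over an internal start, 26.0 or 26.9 kb downstream of the distal cluster, at CpG ratios of 0.420 and 0.354. It was not the widest at the gene in 3 lists, where regions over no start site measured up to 1964 bp in MEF KI, 9558 bp in wound-healing WT and 10608 bp in wound-healing SG. The CpG-rich distal cluster had a narrower region of higher fold in 6 lists. In MMTV-CAF WT its region measured 4061 bp with a fold of 10.4, against 6.93 for the 20121 bp region. In MEF KI a region of 1393 bp covered the start 26.9 kb downstream, another of 1872 bp lay farther inside the gene, the start 26.0 kb downstream was unmarked, and the region at the distal cluster (1964 bp, fold 2.41) ended 57 bp short of it. Over the whole Nfix window, H3K4me3 covered 20.6, 8.01 and 16.9 kb in MEF WT, KI and SG, 49.4 and 32.5 kb for the MMTV-CAF pair, and 35.4 and 28.4 kb for the wound-healing pair.

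**Figure D1:**
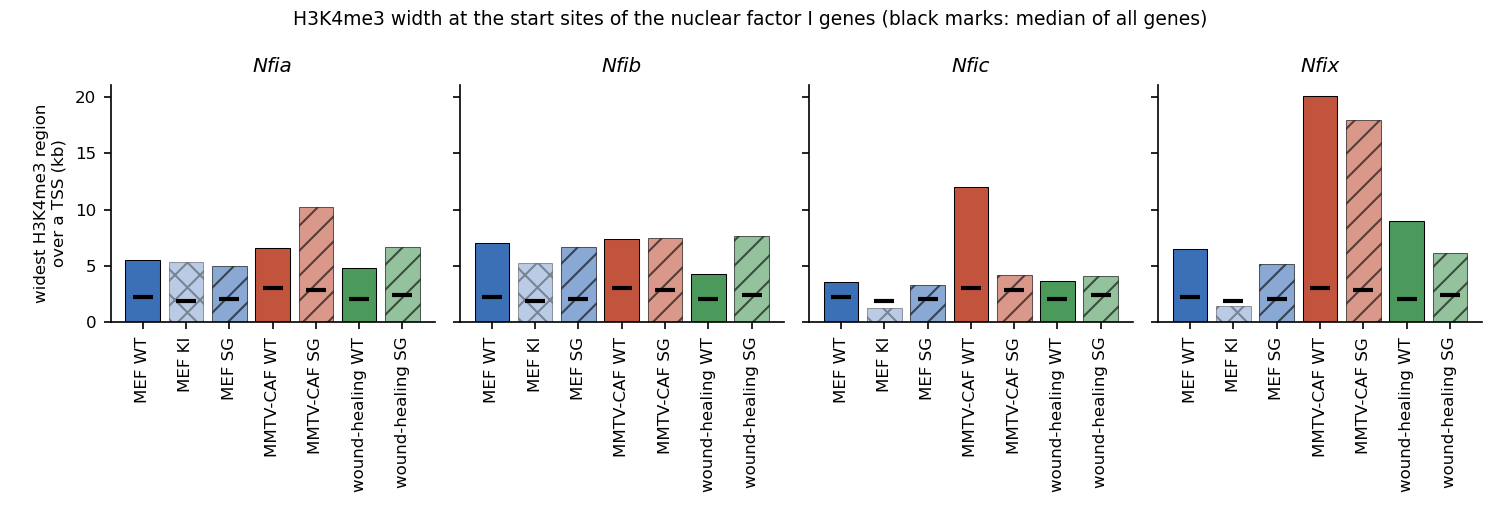
Width in kb of the widest H3K4me3 region over a start site of each gene (bars) in the 7 lists, with the median over all genes that have a region (black marks). Nfia and Nfib lie above the median in all 7 lists, Nfic and Nfix fall below it in MEF KI (1302 and 1393 bp against 1862 bp), and Nfix reaches 20121 bp in MMTV-CAF WT.

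Start-site regions over 4 kb were called broad. In MEF WT 3 of the 4 genes had one, against 9.46% of all genes with a start-site region. In MEF KI it was 2 of 4 (3.75% of all genes), in MEF SG 3 of 4 (7.02%), in MMTV-CAF WT and SG 4 of 4 (28.9% and 24.2%), in wound-healing WT 3 of 4 (8.85%) and in wound-healing SG 4 of 4 (15.6%). Nfib was broad in all 7 lists, as was Nfia, and Nfic in MMTV-CAF WT, MMTV-CAF SG and wound-healing SG.

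H3K27ac lay along all 4 genes. Nfix held 16, 30 and 24 summits in the MEF lists, 49 and 45 for the MMTV-CAF pair, and 39 and 13 for the wound-healing pair. The sum of their −log10 p, a measure that grows with the number and strength of summits, was 515, 461 and 797 in the MEF lists, 1203 and 1519 for the MMTV-CAF pair and 739 and 450 for the wound-healing pair. Among WT cells the sum of Nfix was lowest in MEF. It was highest in MMTV-CAF as summed, but in the wound-healing cells once log2 sums were centred on the median of their list (3.41 and 3.62, with 2.47 in MEF). Per 100 kb its sum stood between the 89.2nd and 99.4th percentile of all genes.

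Nfib followed another order. It held 26, 8 and 17 summits in the MEF lists, 11 and 29 for the MMTV-CAF pair, and 8 and 17 for the wound-healing pair, with sums of 610, 139 and 556, of 263 and 673, and of 160 and 350. In WT cells Nfib was highest in MEF, and of its 45 acetylated loci over all lists 15 were found in MEF WT but in neither other WT list. Nfix had 1 such locus of 69, against 17 found among WT lists in MMTV-CAF only. Some of the 15 Nfib loci were also acetylated in MMTV-CAF SG or wound-healing SG. The WT lists held 44918 (MEF), 53873 (MMTV-CAF) and 33465 (wound-healing) summits. The share of all acetylated loci found in 1 WT type is not given here, so these counts only describe the genes.

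Nfia held 16, 5 and 11 summits in the MEF lists, 15 and 25 for the MMTV-CAF pair and 15 and 16 for the wound-healing pair. Its sums were 309, 50.6 and 277, then 290 and 502, then 289 and 364, so that the 3 WT sums lay within 289 to 309, while centred on the list median they were 1.74 in MEF, 1.36 in MMTV-CAF and 2.26 in the wound-healing cells on the log2 scale. Nfic held 14, 5 and 8 summits, then 14 and 10, then 21 and 13, with sums of 311, 58.5 and 336, of 366 and 352, and of 294 and 208. Nfic, the shortest gene, was dense in acetylation, at the 87.1st to 97.8th percentile of all genes per 100 kb, while the long genes Nfia and Nfib stood between the 45.4th and 66.0th.

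**Figure D2:**
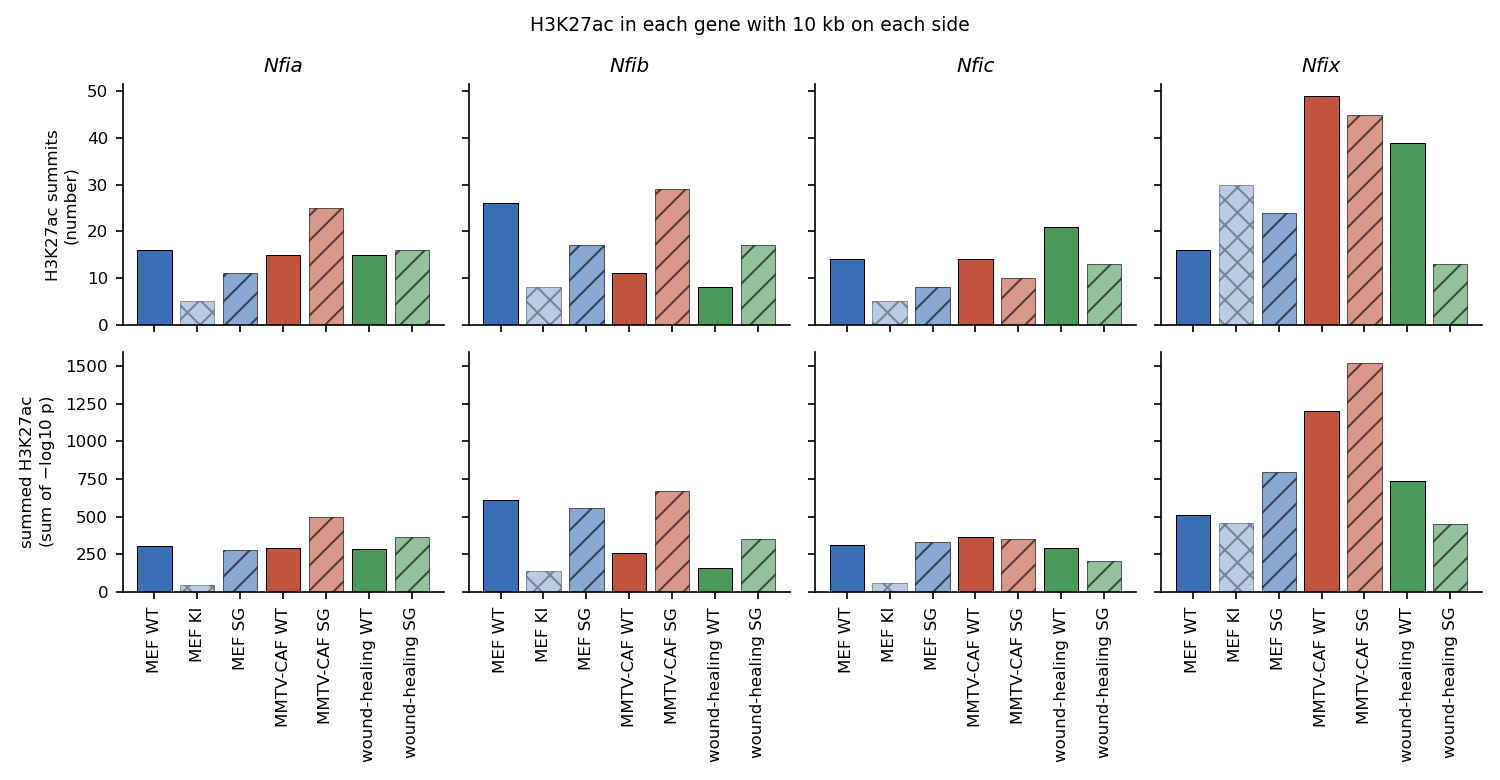
Number of H3K27ac summits (top) and sum of their −log10 p (bottom) in each gene with 10 kb on each side, by list. Between wound-healing WT and SG, Nfib has 8 and 17 summits and Nfix 39 and 13.

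The strongest acetylation of Nfia and Nfib lay within 2 kb of the main start in all 7 lists. For Nfix it lay inside the gene in all 7. In 5 lists the strongest Nfix summit was 57.2 to 57.7 kb downstream of the distal start cluster, with a −log10 p of 101 in MEF WT, 121 in MEF SG, 94.8 and 119 for the MMTV-CAF pair, and 92.8 in wound-healing SG. In wound-healing WT it was 24.7 kb downstream (78.6), and in MEF KI 20.3 kb downstream (36.3). Of the 69 Nfix loci, 6 were acetylated in all 7 lists, against 2 of 32 for Nfia and none of 45 for Nfib or 27 for Nfic. The share of all acetylated loci present in every list is not given here.

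Neighbouring summits were stitched into clusters, clusters were ordered by their summed −log10 p, and those past the bend of the ordered curve (slope 1 with both axes scaled) were taken as super-enhancers. This stands in for the read-based ROSE2 ranking. The highest cluster at Nfix ranked 277th, 4th and 87th in MEF WT, KI and SG, 5th and 3rd for the MMTV-CAF pair, and 7th and 272nd for the wound-healing pair, among 13517 to 19058 clusters. Nfix had a super-enhancer in all 7 lists. Its cluster, which may reach past the 10 kb flanks, spanned 114 kb with 53 summits in MMTV-CAF WT, 62.4 kb with 32 in wound-healing WT and 31.1 kb with 8 in MEF WT. Nfic ranked 116th (wound-healing WT) to 1431st (MEF KI), Nfib 184th (MEF WT) to 1239th (MMTV-CAF WT) and Nfia 445th (wound-healing WT) to 3726th (MEF KI). Of the 4 genes, 4 had a super-enhancer in MEF WT (10.4% of all genes), 2 in MEF KI (4.05%) and 3 in MEF SG (11.4%). It was 2 in MMTV-CAF WT (10.8%), 3 in MMTV-CAF SG (10.5%), and 4 in each wound-healing library (7.38% in WT and 11.8% in SG). These shares of all genes are not matched for window length, and a long window can hold more clusters. The windows spanned 449 kb for Nfia and 436 kb for Nfib.

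Prrx1 binding in WT cells was seen at all 4 genes, but not in every type. Nfix held 0 Prrx1 summits in MEF, 7 in MMTV-CAF and 8 in the wound-healing cells. Nfia held 3, 0 and 3, Nfib 2, 2 and 3, and Nfic 0, 2 and 0. Of all genes, 7.03% held a summit in MEF, 22.1% in MMTV-CAF and 16.7% in the wound-healing cells. Counting Nfix, 57 genes held 7 or more in MMTV-CAF, and 8 genes held 8 or more in the wound-healing cells. Per 100 kb, Nfix held 5.81 Prrx1 summits in MMTV-CAF and 6.64 in wound-healing cells, against 0.449 and 0.313 over the windows of all genes. Of the Prrx1 summits in these lists, 9.88% (MEF), 17.6% (MMTV-CAF) and 22.0% (wound-healing) had a −log10 p under the stated cutoff of 5. With a −log10 p of at least 10 the 4 genes together kept 1 of 5 summits in MEF, 3 of 11 in MMTV-CAF and 2 of 14 in the wound-healing cells.

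Of the Nfix summits, 3 were shared by MMTV-CAF and wound-healing fibroblasts within 500 bp. How often Prrx1 summits of all genes were shared between types is not given, here or for Nfia below. The strongest in the family was at chromosome 8 position 87266676 in MMTV-CAF, with a −log10 p of 36.7, in an intron 57.6 kb downstream of the distal start and 137 bp from an H3K27ac summit. The wound-healing summit 302 bp away had a −log10 p of 7.30. The strongest Nfix acetylation of 5 lists lay beside it, MEF WT and MEF SG included, although Nfix had no Prrx1 summit in MEF. At another shared site the summits lay 46 bp apart, with a −log10 p of 17.2 in the wound-healing cells and 10.7 in MMTV-CAF, inside H3K4me3 regions of 9558 and 20121 bp. These 121-bp stretches (mm9, plus strand, centred on the summit) show the shared sites, with the homeodomain word TAATTA in capitals. TAATTA reads the same on both strands and was counted without overlap.
Nfix, MMTV-CAF, chr8:87266616-87266736: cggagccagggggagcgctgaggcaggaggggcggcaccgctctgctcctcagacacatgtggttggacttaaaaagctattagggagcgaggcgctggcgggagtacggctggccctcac
Nfix, wound-healing, chr8:87303933-87304053: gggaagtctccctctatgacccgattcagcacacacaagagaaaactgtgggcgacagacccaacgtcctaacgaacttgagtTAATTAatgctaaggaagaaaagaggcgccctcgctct
Nfix, wound-healing, chr8:87237449-87237569: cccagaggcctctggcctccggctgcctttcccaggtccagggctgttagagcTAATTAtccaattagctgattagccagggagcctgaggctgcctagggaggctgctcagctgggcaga
Nfia, MEF, chr4:97702600-97702720: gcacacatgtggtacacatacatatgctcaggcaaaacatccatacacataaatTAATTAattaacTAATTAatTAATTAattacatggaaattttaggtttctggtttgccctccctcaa
Nfia, wound-healing, chr4:97762423-97762543: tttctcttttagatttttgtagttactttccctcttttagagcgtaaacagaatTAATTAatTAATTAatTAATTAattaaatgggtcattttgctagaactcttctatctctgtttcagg
Both Nfia stretches held TAATTA 3 times, the 2 wound-healing stretches of Nfix once each, and the strongest Nfix site not at all. Stretches of the same length centred on the summit of the other type differed. The first Nfia site held the word 3 times there too, while the second Nfia site and the 3 Nfix sites held none.

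Both Nfia sites shown were shared by MEF and wound-healing fibroblasts, 18 and 145 bp apart. They lay in introns 156 and 216 kb downstream of the unmarked internal start. The first had a −log10 p of 31.9 in MEF and 6.28 in wound-healing cells and the second 7.43 and 13.8. Neither was acetylated: the nearest WT H3K27ac summit was 24.9 to 34.8 kb away in the same cell type. Within 100 bp of the summit, TAATTA was present at 3 of 5 family summits in MEF, 3 of 11 in MMTV-CAF and 5 of 14 in the wound-healing cells. Over all Prrx1 summits the share was 69.1%, 35.5% and 41.9%, and at positions 2 kb to either side 6.91%, 5.84% and 6.16%.

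**Figure D3:**
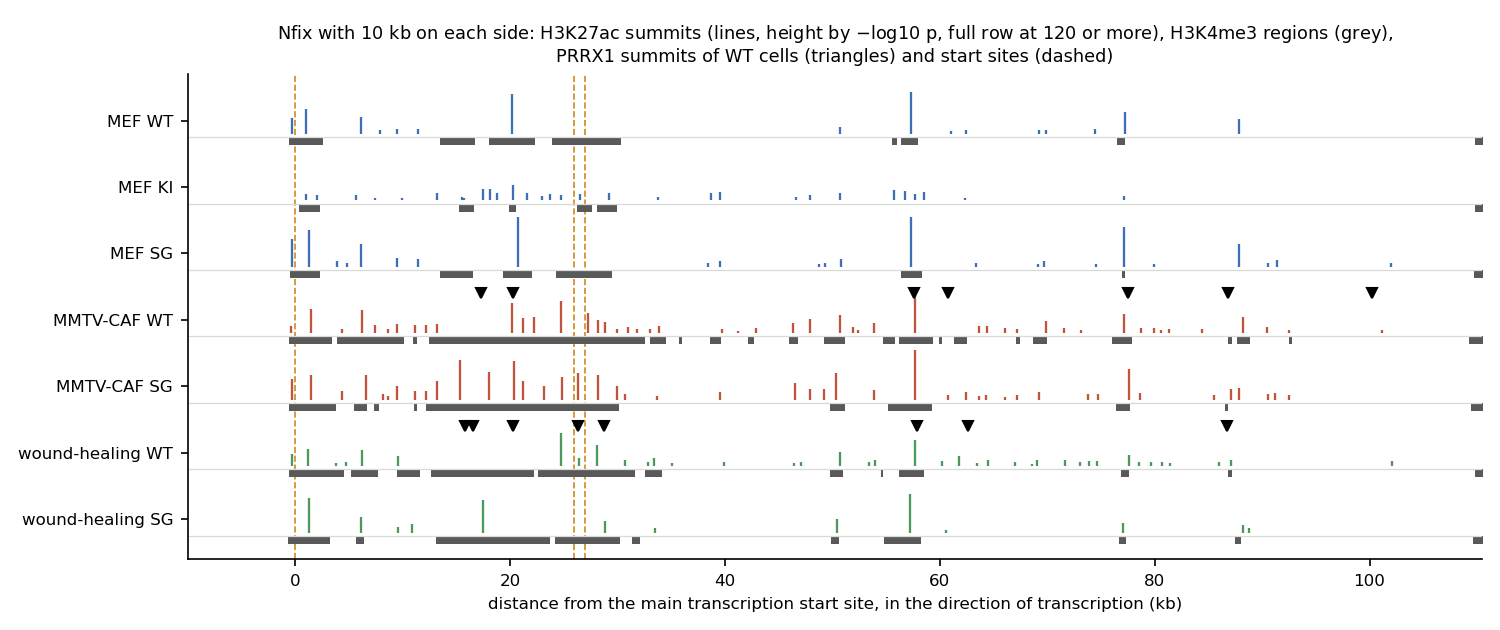
H3K27ac summits (coloured lines, height by −log10 p), H3K4me3 regions (grey bars), start sites (dashed) and WT Prrx1 summits (triangles above the row of their type) along Nfix, by distance in kb from the distal start. Prrx1 summits stand over MMTV-CAF WT (7) and wound-healing WT (8) and not over MEF WT, and wound-healing SG has 13 acetylated summits against 39 in WT.

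The next question was how the genes differed between Prrx1-deleted and WT cells. Ratios are given as log2 of deleted over WT, beside the median over all genes with a value in both lists. For H3K27ac sums that median was −1.68 in KI and 0.50 in SG of MEF, 0.24 in SG of MMTV-CAF and 0.59 in that of the wound-healing cells, so the lists shifted as wholes and a gene was also called after subtracting this median. A change of at least 1.5-fold was called.

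In wound-healing fibroblasts Nfix stood apart from most genes in being lower in SG. The Nfix sum was 739 in WT and 450 in SG, a log2 ratio of −0.71 (1.91st percentile of 12853 genes), and −1.30 relative to the median gene. Its summits numbered 39 and 13, at the 0.537th percentile, and of the 39 WT summits 7 had a summit within 500 bp in SG (17.9%, Wilson 95% interval 8.98% to 32.7%, counting error only), against 67.7% of all WT summits in that list. The SG summits had a higher mean −log10 p, 34.6 against 19.0. WT had 13 summits with a −log10 p under 10 and SG 1, and with a −log10 p of at least 10 the numbers were 26 and 12 and the ratio of the sums was −0.50, under the threshold. Between 10 and 50 kb from the gene the sum was higher in SG (669 against 443), so that with 50 kb flanks the ratio came to −0.08 and was not called either.

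Nfib instead had a sum of 160 in WT and 350 in SG, a log2 ratio of 1.13 (82.9th percentile), which was 0.54 above the median gene and so under the threshold on that scale. Nfic had a ratio of −0.50 (3.38th percentile, −1.09 relative to the median) and Nfia of 0.33. At equal list size the Nfic ratio was −1.12. By the uncorrected ratio 1 gene was lower (2.68% of all genes) and 1 higher (50.3%). Relative to the median gene, 2 were lower (Nfic and Nfix), against 14.0% of all genes. The H3K4me3 width of Nfib was higher by 1.78-fold, the 1 member called higher, against 11.4% of genes. With regions within 1 kb joined, the Nfia ratio was past the threshold too (0.79 against 0.46). The start-site region of Nfix was narrower by 1.47-fold (log2 −0.56, 1.83rd percentile), under the threshold, while the region beside it measured 9558 bp in WT and 10608 bp in SG, and with regions within 1 kb joined the Nfix ratio was −0.32. In all, 33 of 83 WT summits of the 4 genes were found in SG (39.8%), and without Nfix the shares of Nfia, Nfib and Nfic were 66.7%, 62.5% and 52.4%.

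In MMTV-CAF the order of the genes was another. Nfib had a sum of 263 in WT and 673 in SG, a log2 ratio of 1.36 (94.3rd percentile of 13461 genes), with 11 and 29 summits. Nfia had 290 and 502 (0.79, 82.5th percentile). These 2 were called higher, against 26.4% of all genes, and relative to the median gene 1 (Nfib) was, against 16.2%. At equal list size the Nfia ratio was 0.57, under the threshold. Nfix, which carried 7 Prrx1 summits in WT cells, had a ratio of 0.34 at the 57.2nd percentile and kept 31 of 49 WT summits (63.3%). Nfic stood at −0.06. Over the family 57 of 89 WT summits were found in SG (64.0%), against 63.9% of all WT summits. By width, Nfia was called higher (1.54-fold, 4.87% of genes) and Nfic lower (2.86-fold, 5.82% of genes). The Nfia call was lost, at 0.04 on the log2 scale, once regions within 1 kb were joined. The Nfic call was lost, at −0.30, once regions with a −log10 p under 10, among them that over the internal start, were left out or the lists were brought to equal size.

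The 2 Prrx1 genotypes of MEF are given side by side, since they share their control. In KI the sums of Nfia, Nfib and Nfic were lower by 6.12-fold, 4.41-fold and 5.33-fold. These 3 genes were called lower, as were 90.7% of all genes, and after subtracting the median 2 were (Nfia and Nfic), against 23.2%. The Nfix sum was 515 in WT and 461 in KI (log2 −0.16, 95.7th percentile of 11409 genes) and was not called. This was 1.52 above the median gene, and Nfix was called higher on that scale, as were 22.9% of all genes. Nfix had 30 summits in KI against 16 in WT with a lower mean −log10 p (15.4 against 32.2), and 22 of the 30 had no WT summit within 500 bp. The share of all KI summits without a WT summit is not given here, so whether 22 of 30 is unusual is not known. When each −log10 p was divided by the median of its list, the Nfix ratio was 0.47, and with 50 kb flanks it was −0.80. Of the WT summits of the 4 genes, 19 of 72 were found in KI (26.4%, Wilson 95% interval 17.6% to 37.6%), against 44.3% of all WT summits. The widths of Nfic and Nfix were lower, by 2.72-fold and 4.66-fold, against 23.5% of all genes, while those of Nfia and Nfib were not called. The Nfic ratio was −0.84 instead of −1.44 on the log2 scale when a region within 1 kb of a start counted, and the Nfix ratio −0.82 instead of −2.22 when regions within 1 kb were joined. The start-site region of Nfix was thus narrow in the list where its H3K27ac cluster ranked 4th.

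In MEF SG no width reached 1.5-fold (4.88% of genes were lower and 0.596% higher). Nfix had a sum of 797 against 515 in WT, a log2 ratio of 0.63 (60.7th percentile), the 1 member called higher, against 42.6% of all genes. This call was lost relative to the median gene (0.14), after division by the list median (0.43) and with 50 kb flanks (0.54). Nfia (−0.16) and Nfib (−0.13) stood at the 11.9th and 12.6th percentile of 13421 genes, and both were called lower relative to the median gene, against 14.3%. Summits were fewer at Nfib (26 and 17, 16.4th percentile of all genes) and Nfic (14 and 8, 14.4th percentile). The mean −log10 p of Nfic was higher (22.2 and 42.0), and the median of the whole list was higher too (18.5 and 21.2). Of 72 WT summits, 42 were found in SG (58.3%), against 68.2% of all.

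**Figure D4:**
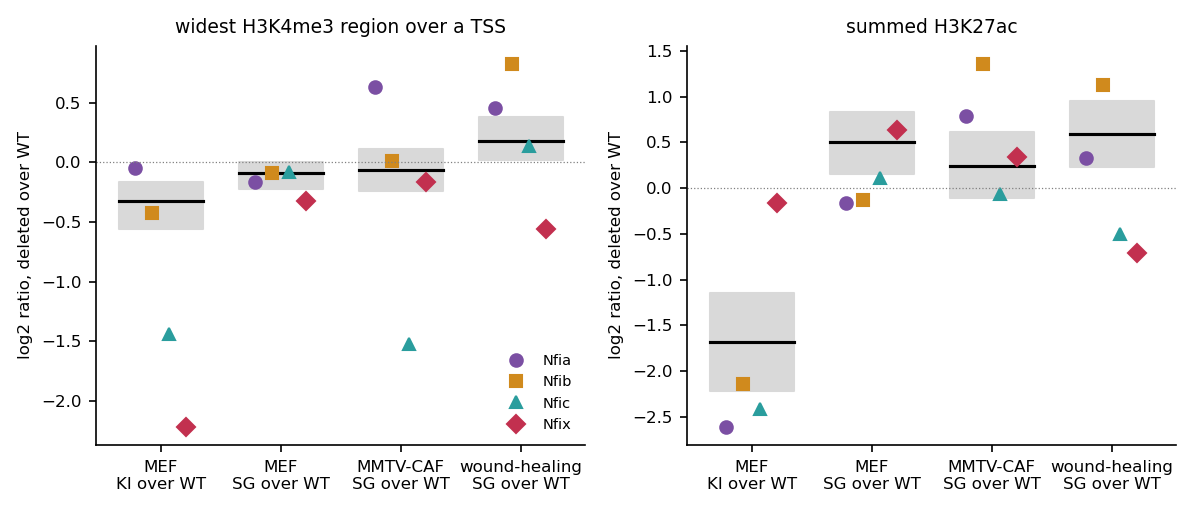
Log2 ratio of deleted over WT for the widest H3K4me3 region over a start site (left) and for summed H3K27ac (right), in the 4 comparisons. Symbols are the 4 genes, grey boxes the lower to upper quartile over all genes and black lines their median. Nfix lies above the box in MEF KI and below it in wound-healing SG for H3K27ac, and Nfib above the box in both the MMTV-CAF and the wound-healing SG column.

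Over the 4 genes the median log2 ratio of summed H3K27ac was −2.28, −0.01, 0.56 and −0.08 for KI and SG of MEF and then for SG of MMTV-CAF and of the wound-healing cells, against −1.68, 0.50, 0.24 and 0.59 over all genes. The family median of width was −0.93, −0.12, −0.08 and 0.30, against −0.32, −0.09, −0.06 and 0.18. No member was called in 1 direction for H3K27ac in all 4 comparisons, but few genes of any kind could be. In MEF KI 90.7% of all genes were called lower and 1.30% higher. The shares called lower were 4.11%, 7.42% and 2.68% in SG of MEF, MMTV-CAF and the wound-healing cells.

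A difference between SG and WT shared by the 3 types was tested with limma on log2 values less the list median, with the type as a block and Benjamini-Hochberg adjustment over all genes with a value in all 6 lists. None of the 4 genes passed an adjusted p of 0.05 for either mark, nor did any of 10525 genes by width (0% called, 456 at an unadjusted p under 0.05) or of 12285 by summed H3K27ac (0% called, 702 at that p). For width, the mean log2 difference was 0.32 ± 0.17 (SE, n = 3 pairs) for Nfia, 0.26 ± 0.15 for Nfib, −0.48 ± 0.31 for Nfic and −0.34 ± 0.16 for Nfix, with a limma adjusted p of 0.906 for each. For summed H3K27ac it was −0.11 ± 0.29 for Nfia, 0.35 ± 0.35 for Nfib, −0.58 ± 0.27 for Nfic and −0.35 ± 0.34 for Nfix, with limma adjusted p-values of 0.963, 0.900, 0.837 and 0.900. A miss of the threshold with 3 pairs does not show that a gene did not differ.

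Acetylation was also read at the Prrx1 summits themselves. None of the 5 family summits in MEF had an H3K27ac summit within 500 bp, in WT or in either mutant. Of all MEF Prrx1 summits, 20.5% had one in WT, 10.1% in KI and 13.5% in SG. In MMTV-CAF it was 4 of 11 in WT (45.4% of all) and 9 of 11 in SG (42.3% of all). In wound-healing fibroblasts it was 5 of 14 in WT (33.2% of all) and 4 of 14 in SG (34.0% of all). At Nfix alone the numbers were 3 and 5 of 7 in MMTV-CAF and 3 and 1 of 8 in the wound-healing cells, each a change of 2 sites.

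**Figure D5:**
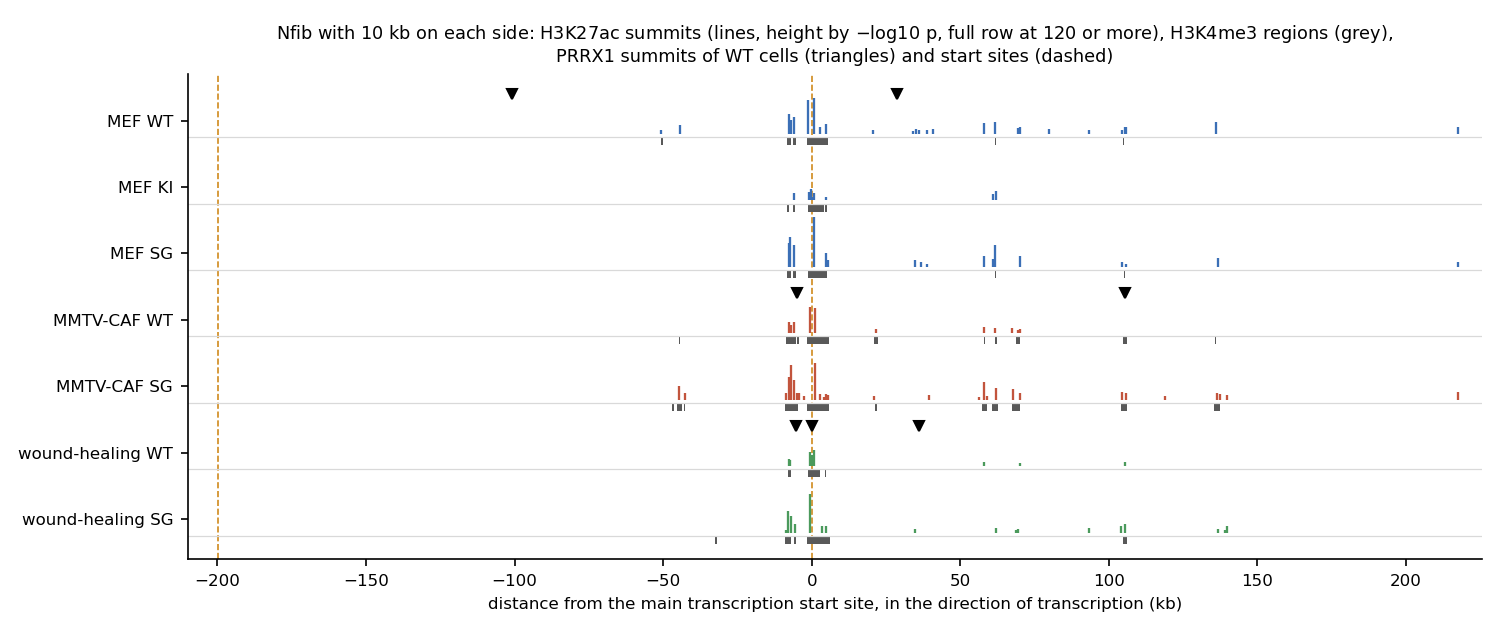
The same map for Nfib, by distance in kb from its main start. Acetylation is grouped at the main start and just upstream of it, at about 60 to 70 kb and at about 105 kb downstream, and is densest in MEF WT (26 summits) and MMTV-CAF SG (29), while the start 200 kb upstream carries neither mark.

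The 4 genes did not share a pattern over the 7 lists. Centred on the list median, log2 sums ranged over 0.88 to 2.26 for Nfia, 1.22 to 2.72 for Nfib, 1.09 to 2.28 for Nfic and 2.30 to 4.07 for Nfix, and the highest list was wound-healing WT for Nfia and Nfic, MEF WT for Nfib and MEF KI for Nfix. The correlation between members over these 7 points, which share their libraries, ran from −0.46 (Nfib with Nfic) to 0.56 (Nfia with Nfic). Among 10846 genes with a summit in every list, the 3 genes most like each member were Gpbp1, Fam19a3 and Whsc1l1 for Nfia (r of 0.962 to 0.985), R3hdm1, Brca1 and Gm17484 for Nfib (0.957 to 0.965), Dus1l, Zbtb44 and Tmem64 for Nfic (0.954 to 0.960), and Hspg2, Fam134a and Frmd8 for Nfix (0.982 to 0.994). With 7 points and so many genes, values of this size are to be read as a description.

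Of 10 genes linked to nuclear factor I proteins in other tissues (Gfap, Fabp7, Hes1, Ezh2, Sox9, Apcdd1, Mmd2, Zcchc24, Cdkn1a and Col1a2), 6 had an H3K27ac sum in both lists in MEF KI and 6 were lower, as were 90.7% of all genes. Less the median of all genes, 1 of the 6 was lower (23.2% of all genes) and 3 were higher (22.9%). In MEF SG 3 of 8 were higher (42.6% of all genes) and none lower (4.11%). In MMTV-CAF SG 2 of 8 were lower (7.42%) and 2 higher (26.4%), and in wound-healing SG 1 of 8 was lower (2.68%) and 2 higher (50.3%). Less the median of all genes, 2 of 8 were lower and none higher in MEF SG (14.3% and 13.4% of all genes) as well as in MMTV-CAF SG (13.8% and 16.2%), and 2 were lower and 1 higher in wound-healing SG (14.0% and 15.4%). On the uncorrected scale only Ezh2, the catalytic subunit of Polycomb repressive complex 2, and Cdkn1a, which encodes the cell-cycle inhibitor p21, were called in both MEF genotypes. They were lower in KI (−0.69 and −3.29) and higher in SG (0.73 and 0.83). Less the median of all genes, Ezh2 was 0.99 in KI, the opposite direction, Cdkn1a was −1.61, and the SG values of 0.23 and 0.33 were under the threshold. On that scale Col1a2 was past the threshold in both genotypes, in opposite directions (1.08 in KI and −0.60 in SG). By width, 2 of 7 were lower in MMTV-CAF SG (5.82% of all genes), 1 of 6 was lower in wound-healing SG (1.67% of all genes) and 1 higher (11.4%), and none was called in MEF, where 3 and 7 of the 10 had a region in both lists. None of the 10 was called higher by either measure in MEF KI, where 1.30% of all genes were higher by sum and 0.524% by width.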

How the data were processed

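ChIP-seq peak lists of 17 libraries were used, 1 per group and antibody. Per the study's methods, Trimmomatic was used by the authors for trimming, Bowtie for alignment to mm9, Picard for duplicate removal and MACS2, with the matching input, for peak calling. For H3K27ac and Prrx1 the authors deposited 1-bp summits with −log10 p. For H3K4me3 the authors deposited broad regions (broad cutoff 0.1) with fold over input, −log10 p and a score, which was not used. Whether repeat ChIPs were pooled, and the depth of each library, are not given in the sources used here. A −log10 p grows with depth, so levels between lists depend on it.

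Genes came from the GENCODE annotation of mm9. Each gene was read with 10 kb flanks, start sites within 500 bp were joined, and summits within 500 bp counted as shared. The rule for named genes took the 4 members, Prrx1 and the 3 genes most like each member over 7 lists. From a list of genes linked to nuclear factor I proteins it took those called in both MEF genotypes on the uncorrected ratio. Col1a2 was added for its values less the median. Members and lists were chosen with earlier results of these data known. The call after subtracting the median of all genes was added after seeing the data. Groups came from the labels, and all comparisons are between single lists at a threshold of 1.5-fold, with no test within a type. SG and WT were also compared over the 3 types with limma (type as a block, list medians subtracted), a test added after seeing the data, which takes the types to share 1 effect and a like spread. Shares carry Wilson 95% intervals that cover counting error only. Alternatives were another flank, joining, stitching and overlap distance, stricter −log10 p, equal list size and division by the list median. Scripts used Python 3.11.15 with pandas 2.3.3, numpy 2.4.6, pysam 0.24.0 and scipy 1.17.1, and R 4.3.3 with limma 3.58.1, and were tested on simulated data.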

Additional observations from a re-analysis of the deposited data

Results flagged for a closer look

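On the uncorrected scale, for 11 results the direction of the difference between deleted and WT cells was opposite in 2 fibroblast types, where MEF counted only if KI and SG had the same direction. The values below are log2 ratios of deleted over WT in one type less those in the other (MEF taken as the mean of KI and SG, which share their control), and none of these differences was tested. Less the median of all genes in each comparison, 4 of the 11 still met this and 7 did not. For the width of H3K4me3 at Nfia the difference was 0.73 between MMTV-CAF and MEF and 0.57 between wound-healing fibroblasts and MEF. For Nfib width it was 0.26 and 1.08, the former resting on a MMTV-CAF ratio of only 0.01. For Nfic width it was 0.90 between wound-healing fibroblasts and MEF and 1.66 between wound-healing fibroblasts and MMTV-CAF. Less the median these 6 differences were, in the same order, 0.58, 0.18, 0.11, 0.70, 0.52 and 1.42, and none met it any longer. For Nfib width, MEF was then −0.10 in KI and 0.00 in SG, against 0.07 for MMTV-CAF and 0.65 for the wound-healing cells, so that the mean of the MEF values was still below 0 and the other types above it.

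For summed H3K27ac at Nfia the difference was 2.17 between MMTV-CAF and MEF and 1.72 between wound-healing fibroblasts and MEF. For Nfib it was 2.49 and 2.26. The median of all genes was −1.68 in MEF KI and above 0 in the SG lists. Less that median, the Nfia differences were 1.34 and 0.54, the latter no longer between opposite directions (wound-healing −0.25, MEF −0.93 and −0.65), and the Nfib differences were 1.66 and 1.08, still between opposite directions. At Nfix the difference between wound-healing fibroblasts (−0.71) and MMTV-CAF (0.34) was −1.05, and −1.40 less the median.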

How the results depend on the processing

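The test over 3 pairs of SG and WT used the fibroblast type as a replicate block. It called 0 genes for either mark with the block, without it, without subtracting list medians and leaving out any 1 type, though 2774 genes were at an unadjusted p under 0.05 by summed H3K27ac without that subtraction, against 702. Estimates for single genes turned direction in 5 cases: without subtracting list medians, summed H3K27ac was 0.32 for Nfia and 0.08 for Nfix. Leaving out 1 type, it ranged from −0.44 to 0.15 for Nfia (above 0 without MEF), from −0.03 to 0.83 for Nfib (below 0 without MMTV-CAF) and from −0.61 to 0.14 for Nfix (above 0 without wound-healing fibroblasts), and the width difference of Nfic was −0.01 without MMTV-CAF. Among summary values, 102 recomputed values stayed close to those reported and 18 moved, and among single genes 275 stayed and 47 moved. None of the 4 genes, where called on the uncorrected ratio, changed sign. Nfix in MEF KI, at −0.16 and not called on that scale, was past 1.5-fold upwards less the median of all genes (1.52) and past it downwards with 50 kb flanks (−0.80). The median log2 ratio of summed H3K27ac over the 4 genes in MEF KI was −1.64 after division by the list median and −0.60 less the median of all genes, and in wound-healing SG −0.67 less that median. At equal list size (29325 summits) the 4 genes held 44 H3K27ac summits in MEF WT, 38 in MEF SG, 50 in MMTV-CAF WT, 52 in SG of MMTV-CAF and 37 in that of the wound-healing cells. MEF KI, whose full list is of that size, held 48. It was thus above MEF WT at equal size, though below the 72 of the full MEF WT list. With a −log10 p of at least 10, 1 Prrx1 summit was left in MEF, 3 in MMTV-CAF and 2 in the wound-healing cells, and with 50 kb flanks 18 in MMTV-CAF and 24 in the wound-healing cells. WT summits found in SG within 1 kb were 70.8% in MEF, 76.4% in MMTV-CAF and 54.2% in the wound-healing cells, and within 250 bp 28.9% in the last. Among the 500 top clusters, 2 genes had a super-enhancer in wound-healing SG. Nfic in MEF KI gave no width with regions of −log10 p of at least 10. The cause of these shifts was not tested. Without replicates within a type and with unknown depth, small differences could not be resolved.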

Other observations

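The full nuclear factor I palindrome, TTGGC then 5 bases then GCCAA, which reads the same on both strands, was searched within 100 bp of every summit. It was found at 0.0102% to 0.0302% of H3K27ac summits per list, against 0.00341% to 0.0158% at positions 2 kb to either side. At Prrx1 summits the share was 0.131% in MEF (4 of 3048), 0.0125% in MMTV-CAF (1 of 8000) and 0.0351% in wound-healing fibroblasts (2 of 5698), against 0.0328%, 0.0125% and 0.0263% at positions 2 kb away. No summit of the 4 genes held it in any of the 10 lists searched, which says only that these letters are not in those windows.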
